A study of Mus musculus with 9 samples.

Results

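The 40 genes described here encode the machinery that copies DNA in S phase, from the proteins that load the helicase onto origins to those that supply nucleotides and pack new DNA into chromatin. The members were taken from a list of gene symbols and not by a threshold on their measured values. The list was chosen with earlier results of these data known. Of the 40, 39 had a row among the 14479 genes of the deposited matrix, and all 39 passed the filter for testing, a mean of at least 1 FPKM (fragments scaled to transcript length and library size, a level per length) over the 9 libraries. The remaining gene, Fen1, which encodes the flap endonuclease that trims Okazaki fragments, was given in the authors' deposited table as 0.653 FPKM for the sham group and 0.369 FPKM for the resection group, without a test, and it was not analysed further.

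The RNA came from the heart ventricle of CD-1 mice, an outbred stock, operated on at postnatal day 1 and killed at postnatal day 2. The 9 libraries form 3 groups of 3: sham surgery, ventricular apical resection (removal of the tip of the ventricle), and ventricular apical resection together with left vagotomy (cutting of the left vagus nerve), called the vagotomy group below. The newborn mouse heart can regrow after such a resection, and the design asks how the ventricle's transcripts respond to the injury and whether that response differs when the vagus nerve is cut. Each library was made from total RNA of the lower ventricular apex, a mixture of heart muscle, stromal, vascular and blood cells, so that fewer cells of a type and less RNA per cell cannot be told apart. Since resection removes the tip, the position of the sampled tissue may also differ between sham and the resected groups, which was not tested. Vagotomy without resection was not analysed here, and the labels do not state whether the 3 libraries of a group came from separate pups or litters, so each p-value reflects just the variation among these samples, which may be technical.

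In each S phase, the origin recognition complex, Cdc6 and Cdt1 load the ring-shaped MCM helicase onto DNA, and Mcm10, Cdc45 and the GINS complex turn it on. Primase and DNA polymerase alpha start new strands, polymerases epsilon and delta extend them while held by the sliding clamp PCNA, and DNA ligase I joins the pieces. Most of these genes are transcribed under the control of E2F factors at the entry into S phase, so their transcripts are high in cycling cells, which in the heart include cardiomyocytes around birth, before most of them leave the cell cycle.

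The E2F link was looked for in the promoters of the members, taken from RefSeq (GRCm38.p6) as the 250 bases before and 50 after the start site, 5′ to 3′ on the gene's strand. A promoter was matched by symbol for 32 of the 39 members; unmatched were Gins1, Gins2, Gins4, Mcm4, Pole, Prim2 and Rfc2. The letters TTTCCCGC, TTTCGCGC, TTTGCCGC and TTTGGCGC, which are forms of the E2F site, were searched on both strands. They occurred in 13 of the 32 members (40.6%), against 704 of the 27025 genes of the whole table (2.6%). The CCAAT box was in 21 of 32 members (65.6%, against 41.1% of all genes), and the letters TTTGAA, which are common in promoters of mitotic genes, were in 4 (12.5%, against 20.2%). None of the 16 matched genes of the comparison list for repair and mitochondrial DNA held one of the E2F letters. That list is too short to tell this from the 2.6% of all genes. These matches describe letters in a window and are not evidence of binding.

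Shown here are the 4 members with a match whose levels gave the smallest p for any difference among the 3 groups, with the matched letters in capitals. They encode Pole2, the second subunit of polymerase epsilon (chr12:69228141-69228440, minus strand), and the helicase subunits Mcm6 (chr1:128359656-128359955, minus strand), Mcm5 (chr8:75109259-75109558, plus strand) and Mcm7 (chr5:138171834-138172133, minus strand). Mcm6 holds 3 matches, Mcm5 and Mcm7 hold 2 each, and Pole2 holds 1. Rrm2 and Rfc4, whose p was smaller than that of any of these 4, held no match, and neither did Rrm1, Prim1 and Mcm2. In Mcm6 and Mcm5, 2 of the matches overlap on opposite strands and share 4 bases, and in Mcm7 1 match overlaps a CCAAT box.
Pole2: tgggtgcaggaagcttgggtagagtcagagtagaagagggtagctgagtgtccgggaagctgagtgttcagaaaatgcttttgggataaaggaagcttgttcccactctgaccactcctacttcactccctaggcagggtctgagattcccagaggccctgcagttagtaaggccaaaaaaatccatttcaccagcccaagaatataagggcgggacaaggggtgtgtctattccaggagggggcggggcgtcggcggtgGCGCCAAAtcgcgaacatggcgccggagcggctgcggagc
Mcm6: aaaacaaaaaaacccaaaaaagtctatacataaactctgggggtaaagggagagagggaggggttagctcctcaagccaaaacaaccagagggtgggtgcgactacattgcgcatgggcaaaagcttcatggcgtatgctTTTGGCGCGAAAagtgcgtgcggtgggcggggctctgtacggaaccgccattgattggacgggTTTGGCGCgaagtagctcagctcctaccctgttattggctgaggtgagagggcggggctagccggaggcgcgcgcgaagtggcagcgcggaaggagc
Mcm5: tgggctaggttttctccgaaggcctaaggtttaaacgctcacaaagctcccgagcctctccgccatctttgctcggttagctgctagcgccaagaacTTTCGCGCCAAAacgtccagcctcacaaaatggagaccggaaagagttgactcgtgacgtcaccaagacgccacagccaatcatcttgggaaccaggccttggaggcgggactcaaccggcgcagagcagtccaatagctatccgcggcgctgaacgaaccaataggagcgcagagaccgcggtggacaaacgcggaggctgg
Mcm7: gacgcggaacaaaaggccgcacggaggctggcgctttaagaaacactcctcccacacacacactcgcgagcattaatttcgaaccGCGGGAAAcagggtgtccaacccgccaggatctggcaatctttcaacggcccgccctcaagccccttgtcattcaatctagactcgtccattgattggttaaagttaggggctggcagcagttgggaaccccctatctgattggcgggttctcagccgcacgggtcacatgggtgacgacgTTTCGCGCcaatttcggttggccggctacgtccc

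Across all genes, the libraries correlated with each other at r = 0.746 to 0.951, and their median level lay between 7.52 and 8.29 FPKM. The files used here hold no counts, so the depth behind each value is unknown. Summed macrophage markers were at 84.3 to 111 FPKM in sham, 246 to 490 FPKM after resection and 259 to 377 FPKM in the vagotomy group (14 of 14 genes listed), and summed neutrophil markers at 20.8 to 45.1, 214 to 306 and 118 to 335 FPKM (9 of 12 listed; Mpo, Elane and Ly6g had no row). Of the cardiomyocyte markers, all 12 were listed and their sum lay at 21951 to 24528, 14012 to 25128 and 18680 to 42709 FPKM. After resection all 12 had a lower mean log2 level than in sham (median log2 change -0.23), and none was called by limma. Myh6 and Actc1 were listed at 0 in all 3 vagotomy libraries and were called lower with vagotomy than after resection. In that comparison 9 of the 12 had a higher mean with vagotomy (median log2 change over the 12 markers 0.78). Called higher were Actn2 (302 ± 116 FPKM after resection, 872 ± 189 FPKM with vagotomy, limma adjusted p = 0.0442) and Myl3 (898 ± 507 and 7663 ± 2616 FPKM, 0.0166). Erythroid markers (7 of 12 listed) summed to 439 to 1355, 794 to 4352 and 362 to 655 FPKM. Fibroblast sums (1724 to 2549, 1662 to 2482 and 1752 to 2110 FPKM) and endothelial sums (352 to 546, 411 to 588 and 443 to 568 FPKM) overlapped between all groups. Smooth muscle and pericyte sums were at 359 to 427, 370 to 411 and 441 to 609.99 FPKM, with the vagotomy libraries above all others. Epicardial and mesothelial sums were at 54.4 to 57.7, 62.9 to 121 and 43.7 to 76.1 FPKM, with the resection libraries above all sham libraries. The part of these mixtures in the results that follow was not tested.

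**Figure D1:**
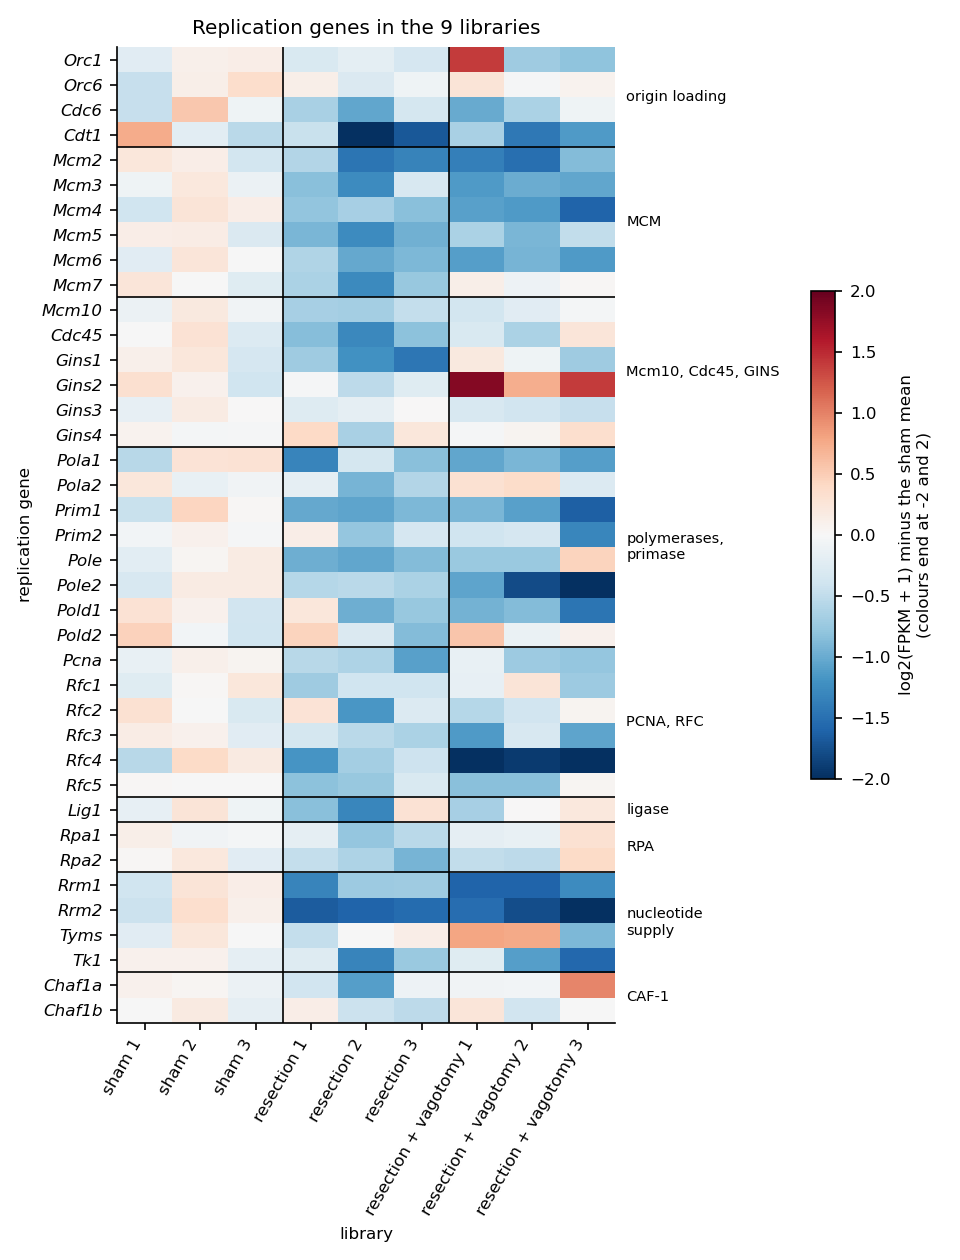
Each row is 1 of the 39 replication genes, ordered by complex, and each column is 1 of the 9 libraries; the colour gives log2(FPKM + 1) less the sham mean; the colour scale ends at -2 and 2. Most rows are blue in the resection and vagotomy columns, and the vagotomy columns hold both the darkest blue (Rfc4, Pole2, Rrm2) and the darkest red (Gins2).

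After resection, every one of the 39 replication genes had a lower mean level than in sham, on the log2(FPKM + 1) scale on which all changes below are given and which understates the change of low genes. The median change was -0.62, against -0.01 over all 13249 tested genes, of which 51.3% were negative. The changes ran from -1.60 for Rrm2, a subunit of ribonucleotide reductase, to -0.004 for Gins4, whose mean FPKM itself was slightly higher after resection. For 22 members, or 56.4%, all 3 resection libraries lay below all 3 sham libraries, an arrangement shown by 4.45% of all tested genes. The 39 members stayed negative under upper-quartile and quantile scaling. With a pseudocount of 5 or with library weights 38 did, and on leaving out 1 library 37 to 39 did.

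No single member passed the test in that comparison: 0 of 39 had a limma adjusted p under 0.05, against 0.00755% of all tested genes lower and 0.287% higher, and 17 had an unadjusted p under 0.05. The smallest limma adjusted p was 0.0547, for Rrm2. The comparison called few genes of any kind, 1 lower and 38 higher, with 780 genes at an unadjusted p under 0.05. The count moved to 15 members with library weights, which gave sham 2 a weight of 14.7 and the other libraries 0.285 to 2.21. All 15 were lower, and with these weights 138 of the 13249 tested genes passed as lower and 279 as higher. The count of members moved to 3 (Mcm5, Mcm7 and Rrm2), all lower, when each library's trend with GC content was removed. In that fit 10 genes passed as lower and 70 as higher. The count of members stayed at 0 in all 9 fits that left out 1 library.

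The authors' deposited table, which gives 1 Cuffdiff value per group, called 13 members lower after resection at a q under 0.05, against 1.93% of the genes it tested. In the authors' deposited table these were the helicase genes Mcm2, Mcm3, Mcm4, Mcm5 and Mcm6, the GINS gene Gins1, the polymerase and primase genes Pola1, Pole and Prim1, the clamp gene Pcna, Rpa2, Rrm1 and Rrm2. At a q of at most 0.01 the authors' deposited table kept 11 of them, losing Gins1 and Rpa2.

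**Figure D2:**
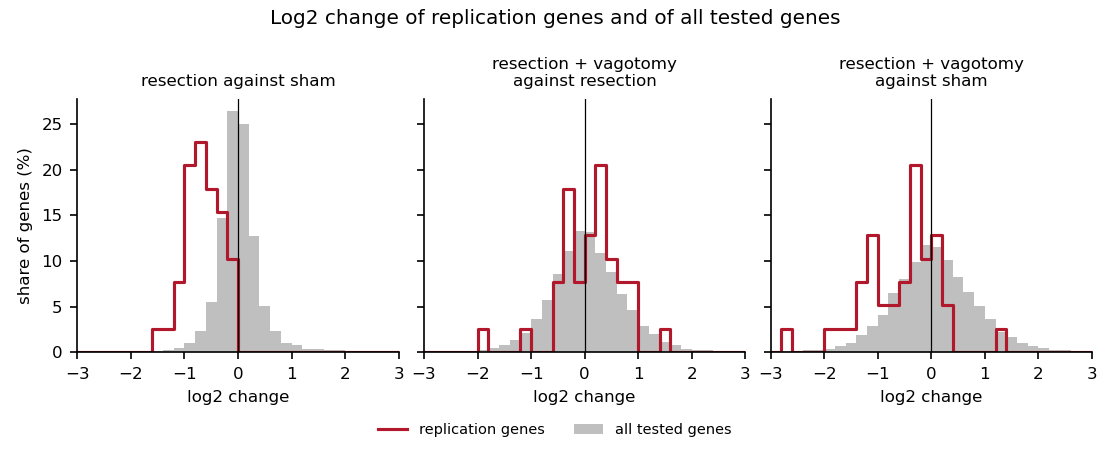
Each panel shows the share of genes (%) by log2 change for all 13249 tested genes (grey bars) and the 39 replication genes (red line) in 1 of the 3 comparisons. In resection against sham the red line lies wholly below 0 with a median of -0.62; in vagotomy against resection it spreads to both sides of 0 with a median of 0.18; in vagotomy against sham its median is -0.39.

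When vagotomy was added to resection, the members lay on both sides: against resection alone 24 members had a higher mean and 15 a lower one, with a median change of 0.18 against 0.02 over all tested genes. The test called 2 members. Rfc4, a subunit of the clamp loader, fell (log2 change -1.91, SE 0.41, limma adjusted p = 0.0385), where 1.55% of all tested genes were called lower. Gins2, a GINS subunit, rose (log2 change 1.58, SE 0.32, limma adjusted p = 0.0344), where 1.97% were called higher. Libraries did not overlap for 4 members below (10.3%, against 12.2% of all tested genes) and 7 above (17.9%, against 14.0%), shares close to the background.

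With the replicate number of the sample titles as a block, 4 members passed: Rfc4 lower (limma adjusted p = 0.0266), and Gins2 (0.0174), Mcm7 (0.0391) and Gins1 (0.0401) higher. In that fit 575 of the 13249 tested genes passed as lower and 702 as higher, so the block raised calls among genes of all kinds. It is not known whether the replicate numbers pair the samples, so the calls that the block added are uncertain. Rfc4 and Gins2 both lie in deposited loci that merge several genes (described with each), and without the block none of the 26 members with a locus of their own passed. Also without the block, the count of 2 fell to 0 on leaving out sham 2, sham 3, resection 2, resection 3, vagotomy 1 or vagotomy 3. The authors' deposited table called other members at a q under 0.05: Pole2 and Rrm1 lower (8.56% of its tested genes were lower) and Pola2 higher (8.52% were higher), with none of the 3 at a q of at most 0.01. In the authors' deposited table the q was 0.642 for Rfc4 and 0.792 for Gins2.

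Resection with vagotomy against sham gave lower means for 31 of 39 members, with a median of -0.39 against 0.03 over all tested genes. The test called 9 members lower, against 4.26% of all tested genes: the helicase genes Mcm2, Mcm3, Mcm4 and Mcm6, the polymerase and primase genes Pole2 and Prim1, Rfc4, and both subunit genes of ribonucleotide reductase, Rrm1 and Rrm2. It called 1 higher, Gins2, against 5.81% of all tested genes. All 3 vagotomy libraries lay below all 3 sham libraries for 17 members (43.6%, against 17.0% of all tested genes) and above them for 1 (2.56%, against 19.7%). Both this comparison and that of resection use the same sham libraries, so their results are not independent.

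These calls rested on sham 2 and sham 3 in particular. Without sham 1, 9 members passed (1182 genes in all). Without sham 2 no member passed (100 genes in all), and without sham 3 only Rrm2 did (119 genes). Without vagotomy 1 or vagotomy 3, 6 members passed in each, and without vagotomy 2, 7 did. Among the 26 members with a deposited locus of their own, 8 passed, all lower.

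**Figure D3:**
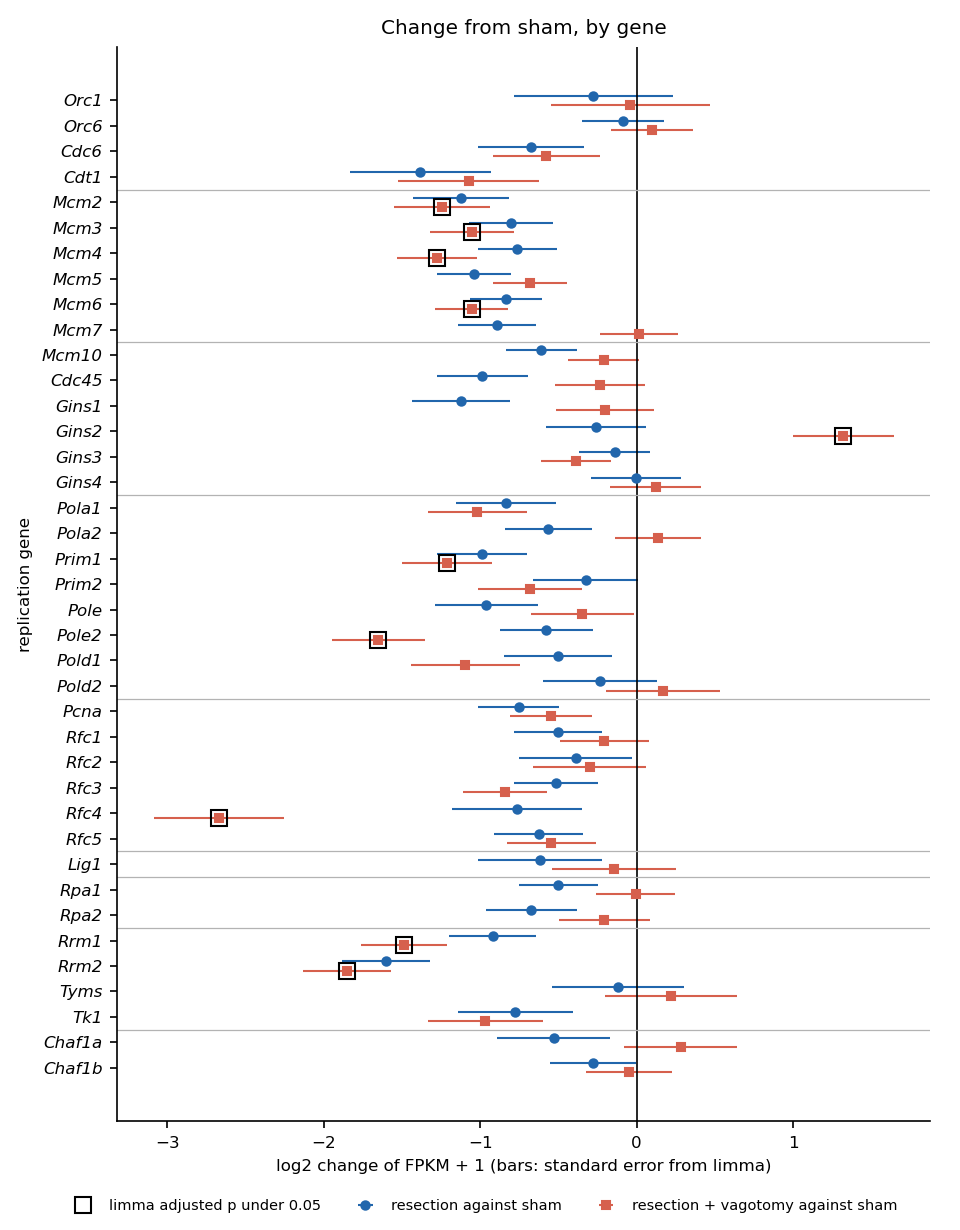
Log2 change of FPKM + 1 against sham for each of the 39 replication genes after resection (blue circles) and after resection with vagotomy (red squares), with bars of 1 standard error from limma and black frames around changes with an adjusted p under 0.05. All blue circles lie at or below 0; the frames mark 9 genes below 0 and Gins2 above it.

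Origin loading was represented by Orc1 and Orc6 of the origin recognition complex, and by the loaders Cdc6 and Cdt1. Their levels in sham ranged from 1.5 ± 0.33 FPKM (mean ± SD, n = 3 here and below) for Orc1 to 19.7 ± 10.2 FPKM for Cdt1, and none passed the test in any comparison. Cdt1 stood at 31.3, 15.6 and 12.3 FPKM in the 3 sham libraries, in the order of their numbers, at 13.2, 3.81 and 4.91 FPKM after resection and at 11.3, 6.11 and 7.73 FPKM with vagotomy. The highest sham value came from sham 1, and the resection libraries overlapped sham through resection 1 alone. The change of Cdt1 after resection, -1.38 (SE 0.45), was the second largest of all members, with a limma adjusted p of 0.451. Its values come from a deposited locus that merges 183 genes and also holds Gins2, so reads of neighbouring genes may have been assigned to it.

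Orc1, the subunit that binds ATP and starts assembly at origins, was at 1.12, 1.66 and 1.72 FPKM in sham, 1.02, 1.17 and 0.961 FPKM after resection and 5.57, 0.512 and 0.415 FPKM with vagotomy. The library vagotomy 1 lay above all others, while the other vagotomy libraries were the lowest of the 9. Cdc6 had means of 5.49 ± 2.34, 2.97 ± 0.916 and 3.31 ± 1.39 FPKM in sham, resection and vagotomy, and Orc6 had means of 5.78 ± 1.81, 5.27 ± 0.90 and 6.1 ± 0.723 FPKM. All 3 groups overlapped for both genes.

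The MCM helicase, the ring of Mcm2 to Mcm7 that unwinds DNA, had lower levels throughout after resection. For all 6 genes the 3 resection libraries lay below the 3 sham libraries, and the median change was -0.86. Mcm2 stood at 29.01, 27.1 and 18.9 FPKM in sham, 16.1, 8.35 and 9.19 FPKM after resection and 8.92, 8.03 and 13.1 FPKM with vagotomy. Mcm3 was at 13.2, 16.5 and 12.9 FPKM in sham, 7.48, 5.32 and 11.2 FPKM after resection and 5.94, 6.61 and 6.37 FPKM with vagotomy. For both genes every library of the 2 resected groups lay below every sham library, and Mcm3 varied least in the vagotomy group.

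Mcm4 had 10.2, 16.6 and 15.2 FPKM in sham, 7.53, 8.27 and 7.28 FPKM after resection and 5.96, 5.7 and 3.84 FPKM with vagotomy, 3 groups with no overlap among them. Mcm6, the subunit transcript with the highest mean in sham, had 23.3, 32.9 and 27.3 FPKM in sham, 17.9, 13.1 and 14.4 FPKM after resection and 12.3, 14.03 and 12.1 FPKM with vagotomy. Sham again stood clear of both other groups, while these overlapped each other. Against sham, Mcm2, Mcm3, Mcm4 and Mcm6 fell with vagotomy by 1.24, 1.05, 1.27 and 1.05 on the log2 scale (SE 0.31, 0.27, 0.25 and 0.23; limma adjusted p = 0.0337, 0.037, 0.0178 and 0.0242). Among the fits that left out 1 library, the call of Mcm4 held in 7 of 9 (lost without sham 2 and sham 3), and those of the others were lost without sham 2, sham 3, vagotomy 1 or vagotomy 2. In addition, Mcm2 was lost without sham 1, Mcm6 without vagotomy 3, and Mcm3 without sham 1 or vagotomy 3.

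Mcm5 was at 15.5, 15.8 and 11.4 FPKM in sham, 7.06, 5.29 and 6.79 FPKM after resection and 8.74, 7.06 and 9.68 FPKM with vagotomy. Its lowest sham library lay above every other library, with changes of -1.04 after resection (SE 0.24, limma adjusted p = 0.142) and -0.68 with vagotomy (SE 0.24, limma adjusted p = 0.088). Mcm7 took another course. It stood at 21.4, 17.9 and 15.05 FPKM in sham, 11.2, 6.8 and 10.2 FPKM after resection and 19.5, 16.7 and 18.3 FPKM with vagotomy. The vagotomy libraries lay within the range of sham and above every resection library, a difference from resection of 0.90 (SE 0.25, limma adjusted p = 0.0701). The level of Mcm7 over the mean level of Mcm2 to Mcm6 was 1.17, 0.82 and 0.88 in sham, 1.00, 0.84 and 1.05 after resection, and 2.32, 2.02 and 2.03 with vagotomy. This ratio was chosen after its values were seen and was not tested. The deposited locus of Mcm7 merges 7 genes, whereas those of Mcm2 to Mcm6 hold 1 gene each, and reads of the other genes in the locus may contribute to its level.

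**Figure D4:**
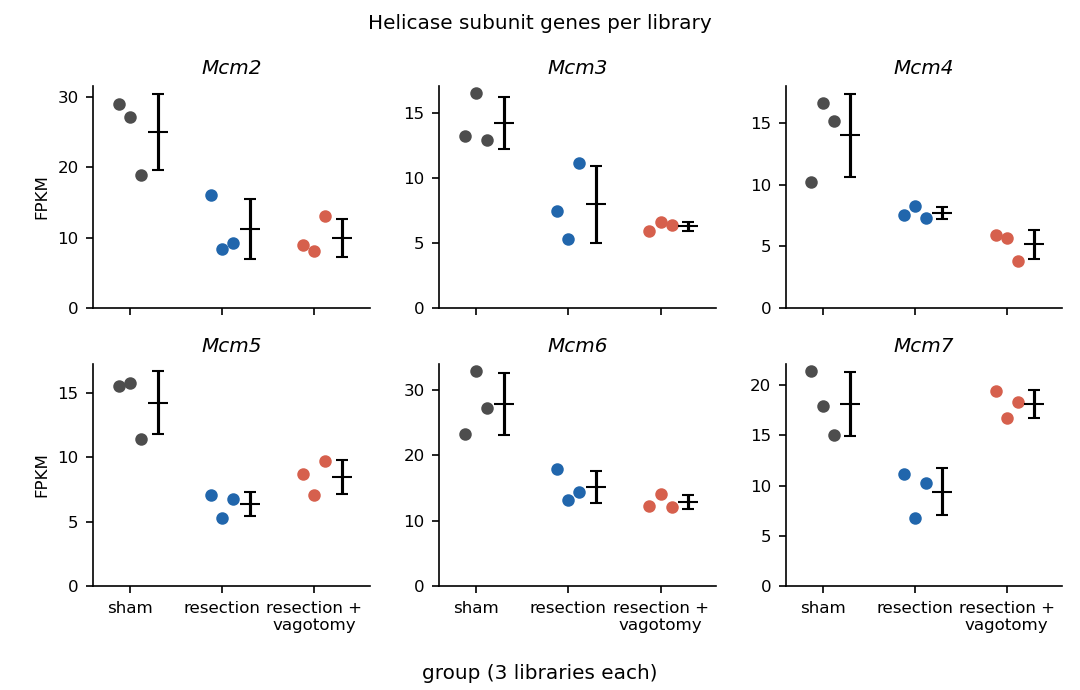
FPKM of the 6 helicase subunit genes in each library, with 1 panel a gene, axes starting at 0, points for the 3 libraries of each group and bars for the group mean ± SD. In all 6 panels the resection points lie below the sham points; the vagotomy points stay low for Mcm2 to Mcm6 and lie between 16.7 and 19.5 FPKM for Mcm7, within the sham range.

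Helicase activation takes Mcm10, Cdc45 and the 4 GINS subunits, which join MCM to form the active helicase. After resection their median change was -0.43, and in 3 of 6, Mcm10, Cdc45 and Gins1, the resection libraries lay below all sham libraries. With vagotomy these 3 had means between those of the other groups: Mcm10 had 3.85 ± 0.575, 2.17 ± 0.243 and 3.19 ± 0.462 FPKM in sham, resection and vagotomy, Cdc45 7.36 ± 1.64, 3.21 ± 0.735 and 6.24 ± 2.25 FPKM, and Gins1 5.9 ± 1.32, 2.21 ± 0.861 and 5.12 ± 1.85 FPKM. In limma none of the 3 passed the threshold in the 3 comparisons. Under alternative settings, Gins1 passed as higher against resection with the block described above, where 702 of the 13249 tested genes did. Library weights, which gave sham 2 a weight of 14.7 and the other libraries 0.285 to 2.21, called more. With these weights Gins1 (limma adjusted p = 0.0121) and Cdc45 (0.0283) passed as lower after resection, where 138 of the 13249 tested genes did. In vagotomy against sham, Cdc45 (0.0142) and Mcm10 (0.0438) then passed as lower. In that weighted fit 3023 of the 13249 tested genes passed as lower and 3366 as higher, so the calls of Cdc45 and Mcm10 there say little.

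Gins2 stood at 12.8, 10.6 and 7.3 FPKM in sham, 9.8, 6.66 and 8.34 FPKM after resection and 38.1, 17.2 and 28.1 FPKM with vagotomy. Every vagotomy library lay above all 6 others, and limma called it higher against sham as well as against resection (log2 change against sham 1.32, SE 0.32, limma adjusted p = 0.0325). The gene (chr8:120578633-120589304, GRCm38) lies in the same deposited locus of 183 genes as Cdt1, which was below all its sham values in the same libraries. The call against sham was lost without sham 2, sham 3, vagotomy 1 or vagotomy 3. Of the other GINS subunits, Gins3 had means of 3.38 ± 0.504, 2.97 ± 0.378 and 2.34 ± 0.168 FPKM, and the vagotomy libraries lay below all 6 others. Gins4 stood at 8.46, 7.82 and 7.9 FPKM in sham, 10.98, 4.8 and 9.6 FPKM after resection and 7.86, 8.42 and 10.4 FPKM with vagotomy. Gins4 was the member with the smallest change after resection, and its 3 groups overlapped.

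Of the polymerase and primase genes, 8 were measured, and all had lower means after resection, with a median of -0.57. Pole2 was at 5.94, 8.78 and 8.73 FPKM in sham, 4.89, 5.02 and 4.61 FPKM after resection and 3.18, 1.51 and 1.03 FPKM with vagotomy. Its 3 groups did not overlap, in descending order from sham to vagotomy. The fall from sham with vagotomy was 1.65 on the log2 scale (SE 0.30, limma adjusted p = 0.0129), lost without sham 2 or sham 3; against resection the change was -1.07 (SE 0.30, limma adjusted p = 0.0699). The catalytic subunit of the same enzyme, Pole, had means of 4.61 ± 0.719, 1.87 ± 0.168 and 3.74 ± 2.44 FPKM, with vagotomy 3 at 6.57 FPKM above all sham libraries and vagotomy 1 and 2 below them.

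Prim1, the catalytic subunit of primase, which lays down the RNA primers, was at 12.3, 23.6 and 17.4 FPKM in sham, 7.92, 7.77 and 8.74 FPKM after resection and 8.66, 7.51 and 4.84 FPKM with vagotomy. All 6 libraries of the resected groups lay below sham, and the fall with vagotomy was 1.21 on the log2 scale (SE 0.29, limma adjusted p = 0.03), lost without sham 2, sham 3, vagotomy 2 or vagotomy 3. Its partner Prim2 had means of 3.28 ± 0.225, 2.53 ± 1.11 and 1.79 ± 0.917 FPKM. The catalytic subunit of polymerase alpha, Pola1, had means of 7.32 ± 2.48, 3.67 ± 1.53 and 2.97 ± 0.271 FPKM and its regulatory partner Pola2 had 17.5 ± 2.62, 11.7 ± 3.29 and 19.6 ± 4.64 FPKM, the latter with its lowest mean after resection.

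Polymerase delta was represented by its catalytic subunit Pold1, with means of 22.6 ± 5.43, 16.5 ± 8.32 and 10.01 ± 2.33 FPKM, and by Pold2. Pold2 stood at 13.7, 9.3 and 7.1 FPKM in sham, 13.6, 7.78 and 4.87 FPKM after resection and 14.6, 8.77 and 10.4 FPKM with vagotomy. Its groups overlapped in each comparison, and in all 3 groups library 1 was the highest.

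The sliding clamp Pcna, which tethers polymerases to DNA, had means of 25.8 ± 2.32, 15.05 ± 3.09 and 17.6 ± 4.78 FPKM in sham, resection and vagotomy, with all resection libraries below sham. Its loader, the RFC complex, has 5 subunits, which had a lower mean after resection for each gene. Rfc4 (chr16:23113943-23127737) was at 10.7, 21.4 and 18.4 FPKM in sham, 6.57, 9.7 and 11.9 FPKM after resection and 1.91, 3.56 and 0.495 FPKM with vagotomy. The vagotomy libraries lay below all others, and its change from sham, -2.67 (SE 0.41, limma adjusted p = 0.00883), was the largest of any member in any comparison and was lost without sham 2 or sham 3 (highest limma adjusted p = 0.0542). The deposited locus of Rfc4 merges 7 genes, among them Eif4a2, a translation factor, and small nucleolar RNA genes.

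The other RFC subunits did not share the size of that change. Rfc2 stood at 24.4, 19.3 and 15.6 FPKM in sham, 23.6, 8.14 and 15.9 FPKM after resection and 12.7, 14.7 and 20.2 FPKM with vagotomy, with all groups overlapping. Rfc1, the large subunit, had means of 12.3 ± 2.14, 8.37 ± 1.15 and 10.9 ± 3.91 FPKM, Rfc3 of 10.003 ± 1.46, 6.69 ± 0.802 and 5.32 ± 2.1 FPKM and Rfc5 of 14.7 ± 0.21, 9.31 ± 2.07 and 10.2 ± 4.24 FPKM. With vagotomy their changes from sham ran from -0.84 for Rfc3 to -0.21 for Rfc1, none past the threshold.

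DNA ligase I, encoded by Lig1, seals the nicks between Okazaki fragments. It was at 9.999, 13.8 and 10.7 FPKM in sham, 5.93, 4.02 and 14.1 FPKM after resection and 6.85, 11.4 and 13.4 FPKM with vagotomy. Resection 3 was the highest of all 9 libraries and resection 2 the lowest, so that the resection group spanned the whole range. The RPA complex coats the unwound single strands. Rpa1, its large subunit, stood at 53.7, 46.9 and 47.9 FPKM in sham, 43.4, 28.4 and 33.7 FPKM after resection and 43.7, 44.5 and 61.1 FPKM with vagotomy. Rpa2 stood at 12.8, 14.7 and 10.6 FPKM in sham, 8.81, 7.85 and 6.17 FPKM after resection and 8.69, 8.48 and 16.8 FPKM with vagotomy. For both genes resection lay below sham in every library, and vagotomy 3 was above every sham library; none of these differences passed the limma test.

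Nucleotide supply held the members with the highest mean levels in sham, Rrm2 and Rrm1. Rrm2 (chr12:24708241-24714146), the small subunit of ribonucleotide reductase, which makes deoxynucleotides and whose level follows the cell cycle, was at 43.1, 74.3 and 62.6 FPKM in sham, 17.9, 18.6 and 19.5 FPKM after resection and 19.8, 16.5 and 11.3 FPKM with vagotomy. The 6 libraries of the resected groups all lay at less than the lowest sham library, and the resection libraries were close together. Against sham, Rrm2 fell with vagotomy by 1.85 on the log2 scale (SE 0.28, limma adjusted p = 0.00836), a call held in 8 of the 9 fits that left out 1 library and lost without sham 2 (limma adjusted p = 0.0512).

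Rrm1 (chr7:102441695-102469771), the large subunit of the same enzyme, was at 37.6, 59.5 and 54.4 FPKM in sham, 19.2, 29.6 and 29.9 FPKM after resection and 15.7, 15.6 and 20.1 FPKM with vagotomy. Sham was above both other groups, and vagotomy 3 was the only vagotomy library within the resection range. The fall with vagotomy was 1.49 on the log2 scale (SE 0.28, limma adjusted p = 0.0144), lost without sham 2 or sham 3. Tyms, thymidylate synthase, did not follow: it had 3.89, 5.71 and 4.73 FPKM in sham, 3.12, 4.69 and 5.29 FPKM after resection and 8.88, 8.7 and 2.08 FPKM with vagotomy. Vagotomy 1 and 2 were the highest libraries and vagotomy 3 the lowest. Tk1, thymidine kinase of the salvage route, had means of 24.4 ± 2.57, 14.5 ± 5.58 and 12.9 ± 6.66 FPKM, with the libraries of both resected groups below all sham libraries.

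The CAF-1 histone chaperone places histones on newly copied DNA. Chaf1a, its large subunit, was low throughout, at 2.13, 2.01 and 1.7 FPKM in sham, 1.25, 0.368 and 1.74 FPKM after resection and 1.8, 1.84 and 4.77 FPKM with vagotomy. Vagotomy 3 was the highest library and resection 2 the lowest. Chaf1b was at 4.12, 4.82 and 3.53 FPKM in sham, 4.61, 2.8 and 2.56 FPKM after resection and 5.07, 2.94 and 4.1 FPKM with vagotomy. Its 3 groups overlapped, and neither subunit passed a test.

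Seen by library, the median member lay at -0.06, 0.13 and -0.07 from the sham mean in sham 1 to 3, at -0.56, -0.78 and -0.63 in resection 1 to 3, and at -0.49, -0.63 and -0.72 in vagotomy 1 to 3. By this measure the 6 resected libraries were apart from the 3 sham libraries, and the resected groups overlapped each other. Sham 2 was the highest library for 15 members, while resection 2 was the lowest for 15 and vagotomy 3 for 13. The mean was highest in sham for 29 members, in the vagotomy group for 10 and in the resection group for 0. With vagotomy the median change from sham was -1.05 for MCM, -0.85 for polymerases and primase and -1.23 for nucleotide supply, against -0.21 for helicase activation, -0.11 for RPA and 0.12 for CAF-1. The differences between complexes were not tested.

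Transcript GC content went with the change in the vagotomy group, and it also set libraries of the same group apart. Over all tested genes, the Spearman correlation with GC of a library's deviation from the sham mean was 0.76, -0.50 and -0.66 in sham 1 to 3. It was 0.57, -0.43 and -0.015 in resection 1 to 3 and 0.44, 0.27 and 0.29 in vagotomy 1 to 3. Over the 13118 tested genes with a GC value, the Spearman correlation of log2 change with GC was 0.16 for resection against sham, 0.34 for vagotomy against resection and 0.37 for vagotomy against sham. Over the 39 members it was -0.003, 0.47 and 0.34; genes share libraries and are not independent, so these are descriptions. The members' GC content ran from 41.5% to 61.0% with a median of 48.9%, near the 49.6% of all tested genes. The 9 members called lower with vagotomy against sham had a median of 45.5%, and the other 30 a median of 49.3%. With the GC trend of each library removed, the median of the members was -0.66 for resection against sham, 0.07 for vagotomy against resection and -0.39 for vagotomy against sham. In this last comparison 14 members then passed, 13 of them lower, where 1038 of the 13118 genes passed as lower and 1102 as higher. Against resection, the same removal left Gins2 higher and Rfc4 lower, and added Mcm7 higher and Pold1 lower. There, 636 of the 13118 genes passed as lower and 616 as higher.

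**Figure D5:**
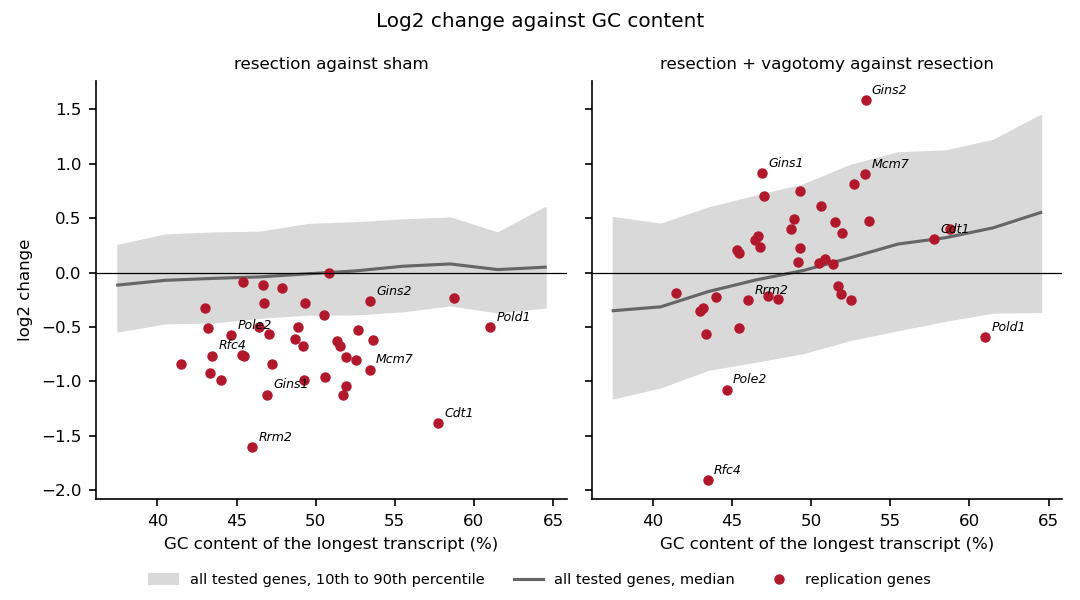
Log2 change against the GC content (%) of the longest transcript, for resection against sham (left) and vagotomy against resection (right); red points are the 39 replication genes, the grey line and band the median and the 10th to 90th percentile of all tested genes. On the left the points lie at or below 0 at every GC content while the grey line stays near 0; on the right the grey line climbs with GC content, and 5 members lie outside the band, Gins1 and Gins2 above it and Pold1, Pole2 and Rfc4 below it.

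Replication needs further factors, such as the remaining origin recognition subunits, fork protection proteins and histone suppliers. Of 36 such replication genes, 34 were tested: 32 had a lower mean after resection, with a median of -0.42 and none past the threshold. With vagotomy 29 had a lower mean than in sham, with a median of -0.62, and 11 passed as lower (4.26% of all tested genes did), among them Asf1b, Dna2, Donson, Orc4, Orc5, Rbbp7, Slbp, Timeless, Tipin and Topbp1. These included Asf1b, a histone chaperone that hands histones to CAF-1 (7.52 ± 0.447, 3.32 ± 1.17 and 2.71 ± 1.07 FPKM in sham, resection and vagotomy) and Dna2, a nuclease and helicase of Okazaki fragments (6.5 ± 0.165, 2.74 ± 0.626 and 3.11 ± 0.684 FPKM). Rnaseh2a, the catalytic subunit of the RNase that removes RNA from DNA, rose against resection, where 1.97% of all tested genes were called higher (log2 change 1.38, SE 0.31, limma adjusted p = 0.0413), with 12.5 ± 2.66, 10.4 ± 3.74 and 27.8 ± 5.97 FPKM; the list's median there was -0.07 and no gene was called lower.

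Genes for repair and mitochondrial DNA, among them polymerases, ligases and nucleotide enzymes, served as a contrast. These 22 genes had medians near 0 in each comparison (-0.03, -0.07 and -0.001). In them, 0 passed for resection against sham and 0 for vagotomy against resection. Against sham with vagotomy, where 4.26% of all tested genes were called lower and 5.81% higher, Rev1, a translesion polymerase, fell (11.7 ± 1.99, 8.73 ± 1.01 and 5.15 ± 0.588 FPKM in sham, resection and vagotomy) and Samhd1, an enzyme that breaks down deoxynucleotides, rose (10.9 ± 0.521, 12.2 ± 3.98 and 23.4 ± 2.77 FPKM). Ssbp1, the mitochondrial single-strand binding protein, had 19.2 ± 1.29, 19.02 ± 5.9 and 32.3 ± 6.66 FPKM, and Primpol, listed under an older symbol, had 4.34 ± 0.989, 2.98 ± 1.13 and 1.81 ± 0.198 FPKM, neither past the threshold.

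The 12 genes of E2F and S-phase entry all had lower means after resection (median -0.70, none past the threshold). Their median with vagotomy was 0.01 against resection and -0.50 against sham, where 4.26% of all tested genes were called lower and the cyclins Ccna2 (30.3 ± 9.37, 14.1 ± 1.13 and 12.5 ± 4.53 FPKM in sham, resection and vagotomy) and Ccne2 (14.04 ± 5.78, 5.63 ± 2.9 and 1.34 ± 0.458 FPKM) fell. E2f1, an activating E2F factor, had 6.57 ± 1.95, 2.35 ± 1.29 and 7.36 ± 2.27 FPKM, lowest after resection, with a change of 1.36 from resection to vagotomy (SE 0.35, limma adjusted p = 0.0606). Rbl1, a pocket protein that restrains E2F, had 11.7 ± 3.93, 4.41 ± 1.51 and 5.14 ± 0.707 FPKM.

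The 20 mitosis genes, which act after replication is complete, all had lower means after resection too (median -0.86, none past the threshold). With vagotomy their median was -0.17 against resection, where Cdc20 was called higher (1.97% of all tested genes were), and -1.06 against sham, where 7 passed as lower (4.26% of all tested genes did), namely Aurka, Bub1, Ccnb1, Cdk1, Kif11, Top2a and Ttk. Top2a, which untangles copied chromosomes, had 71.9 ± 27.2, 27.7 ± 6.42 and 16.6 ± 2.83 FPKM in sham, resection and vagotomy, Kif11, a spindle motor, 17.1 ± 5.51, 6.78 ± 2.31 and 3.2 ± 1.1 FPKM, Bub1, a checkpoint kinase, 7.28 ± 2.17, 2.65 ± 0.533 and 0.821 ± 0.786 FPKM, and Ccnb1, the mitotic cyclin, 13.8 ± 4.52, 6.999 ± 1.28 and 4.44 ± 1.51 FPKM. The difference between the replication genes and these lists was not tested.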

How the data were processed

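RNA sequencing of 9 ventricle libraries was analysed from the processed files. Per the submitters' processing notes, TopHat2 2.0.9, Cufflinks 2.1.1, Cuffdiff 2.1.1 and GRCm38 were used. The deposited matrix holds FPKM to which the authors added a pseudocount of 1, for genes over 1 FPKM in at least 1 library; 1 was subtracted. The authors' deposited Cuffdiff tables give FPKM per group, p-values and q-values in 2 comparisons. No counts were used, so depth and counting error are unknown.

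log2(FPKM + 1) values of all 9 libraries were tested by limma 3.58.1 (R 4.3.3) with 1 mean per group, a variance trend, two-sided moderated tests and Benjamini-Hochberg adjustment over 13249 genes (mean of at least 1 FPKM, threshold 0.05). An exact permutation test of 3 against 3 cannot give a p below 0.1. The procedure was run on simulated data with independent genes and no GC trend, so that run does not bear on the library trends here. Gene positions and GC content came from GENCODE M21, and promoters from RefSeq (GRCm38.p6). A total of 13 of the 39 members share a deposited locus with other genes.

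The members and lists were chosen with earlier results of these data known. Values in every library are given for the members with the smallest and the largest F-test p of each complex, all MCM genes and members past the threshold; of each comparison list, up to 4 genes with the smallest F-test p and those past the threshold are named, except 1 gene that is not reported here.

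Resection and vagotomy libraries of the same number deviated together from their group means, though weakly (r = 0.199, 0.141 and 0.117 for numbers 1, 2 and 3). Deviations from a mean of 3 libraries cancel within the group, so these values do not show pairing. The fit with the replicate number as a block is given beside that comparison as an alternative. The numbers are those of the sample titles, and the libraries numbered 3 carry different numbers in the deposited column names. The labels do not say what the numbers share. Alternatives were other pseudocounts, filters, scalings and moderation, library weights, the block, the 6 compared libraries alone, a stricter q and leaving out each library; after the data were seen, protein-coding genes alone, a GC correction and members with a deposited locus of their own were added.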

Additional observations from a re-analysis of the deposited data

How the results depend on the processing

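For resection against sham, the 39 members had a negative median in every setting, from -0.79 with a pseudocount of 0.1 to -0.46 with a pseudocount of 5 (-0.75 with library weights, -0.73 to -0.56 on leaving out 1 library). Members past the threshold numbered 0 in the reported fit, 1 (Rrm2) with a pseudocount of 0.1, a mean of at least 5 FPKM, quantile scaling, robust moderation or protein-coding genes alone, 3 with the GC trend removed, 15 with library weights, and 0 in every fit without 1 library. Genes past it numbered 66 and 23 with pseudocounts of 0.1 and 5, 13 with the 6 compared libraries alone, 74 with robust moderation, 417 with library weights, 86 for protein-coding genes alone, 80 with the GC trend removed, and 11 to 59 without 1 library. The weights gave sham 2 a weight of 14.7 and the other libraries 0.285 to 2.21.

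For vagotomy against resection, members past the threshold numbered 1 with a pseudocount of 5, 6 with library weights, 0 when only the 6 libraries compared were fitted, 4 with the replicate block, 4 with the GC trend removed, 0 among members with a deposited locus of their own and 0 to 2 without 1 library. Genes numbered 29 with the 6 libraries alone, 887 with weights, 1277 with the block, 1252 with the GC trend removed and 42 to 591 without 1 library. The members' median fell to 0.070 with the GC trend removed and ran from 0.056 to 0.23 without 1 library. At a q of at most 0.01 the authors' table called 0 members.

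For vagotomy against sham, the median was -0.51 and -0.24 with pseudocounts of 0.1 and 5, -0.55 with a mean of at least 5 FPKM, -0.66 with weights and -0.48 to -0.30 without 1 library. With weights, 26 members and 6389 genes passed; the GC trend removed gave 2140 genes, and leaving out 1 library gave 0 to 12 members and 100 to 1701 genes. Here and for resection against sham, too, the replicate numbers are not shown to pair the samples. The correlation of same-numbered deviations was 0.498, 0.197 and 0.013 for sham with resection. It was 0.186, 0.17 and -0.019 for sham with vagotomy, and sham 3 correlated best with resection 2 (0.335). With the replicate block 55 genes and 0 members passed for resection against sham, and 2413 genes and 14 members for vagotomy against sham.

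Among the named genes, signs turned only for changes that had not passed the threshold; ranges are over the 9 fits without 1 library. For resection against sham these were Gins4 (-0.21 to 0.32, 0.013 with a pseudocount of 5, 0.051 with weights), Tyms (-0.24 to 0.062) and Pold2 (-0.57 to 0.083). For vagotomy against resection they were Mcm2 (-0.31 to 0.15), Cdt1 (-0.0017 to 0.78, -0.012 with the GC trend removed), Gins4 (-0.19 to 0.33), Rfc2 (-0.29 to 0.42) and Orc1 (-0.49 to 0.62). For vagotomy against sham they were Orc1 (-0.76 to 0.34, 0.069 with a pseudocount of 5, 0.037 with quantile scaling, 0.048 with the GC trend removed), Mcm7 (-0.11 to 0.13, -0.044 and -0.038 with upper-quartile and quantile scaling, -0.020 with weights, -0.21 with the GC trend removed), Pold2 (-0.031 to 0.40, -0.25 with the GC trend removed), Rpa1 (-0.16 to 0.076), Chaf1b (-0.20 to 0.12), Lig1 (-0.33 to 0.11), Tyms (-0.068 to 0.77) and Chaf1a (-0.061 to 0.46). The cause of these shifts was not tested. Depth is unknown, so counting error could not be set against any of these values.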
